A study of Homo sapiens with 6 samples.

Results

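The 10 genes described here move calcium across the membranes of a cell, and their transcripts were measured in BL2, a line established from a human Burkitt lymphoma, after LEF1 had been lowered by siRNA. They are the plasma membrane pump genes ATP2B1 and ATP2B4, the store pump genes ATP2A2 and ATP2A3, the IP3 receptor genes ITPR1, ITPR2 and ITPR3, and the store entry genes STIM1, STIM2 and ORAI1. Every probe set that the platform annotation gives to a single one of these 10 genes was taken, which made 34 of the 54675 probe sets on the array, or 10 of 19775 named genes. The genes were chosen by function with the LEF1 siRNA differences on these same arrays already known, ATP2B1 being among the larger rises. Their differences are therefore given as a description, with no p-value printed for a member. Calls from fits over all probe sets are stated beside the differences as part of that description. Nothing is inferred from how many member probe sets passed a threshold.

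The arrays form 2 groups of 3, cells electroporated with a pool of 4 siRNAs against LEF1 and cells electroporated with scrambled siRNA. All cultures grew in complete RPMI medium, and every batch, of which the labels give 3, paired 1 array with LEF1 siRNA and 1 with scrambled siRNA, which the series' design text calls biological replicates. The siRNA dose and the time between electroporation and harvest were not given in the sources used here. Levels are log2 expression per probe set, and an error after ± is the SD of the 3 arrays of a group unless said to be over batches. An array reads the RNA of all cells together, so a change in every cell and a larger change in some of them cannot be told apart. A level belongs to its own probes, so levels of different probe sets are compared only roughly. Such comparisons are made for marker genes, for the probe sets of a gene and against the array-wide median.

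LEF1, the DNA-binding partner of beta-catenin that the siRNA pool targets, read 8.21, 8.09 and 8.67 with LEF1 siRNA in batches 1, 2 and 3, against 11.09, 10.58 and 11.45 with scrambled siRNA at its brightest probe set. From the brightest to the dimmest LEF1 probe set, the mean differences were -2.71, -1.84 and -0.29. The dimmest was lower in every batch but did not pass without block. Of 8 B cell and Burkitt markers 7 were measured, at mean levels between 10.3 and 13.6. Markers of T and NK cells, of monocytes and macrophages, and of platelets and red cells lay between 6.04 and 7.37, which brackets the array-wide median of 6.91. Markers of epithelial cells and fibroblasts lay between 6.14 and 8.04. None of the 18 measured markers of other cell types passed an adjusted p of 0.05 with or without batch as block, and of the B cell markers MME passed with block, lower by 0.43 with LEF1 siRNA.

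Calcium is kept low in the cytosol and high in the endoplasmic reticulum. SERCA pumps (ATP2A genes) load the reticulum, and PMCA pumps (ATP2B genes) push calcium out through the plasma membrane. In B cells, ligation of the antigen receptor leads to IP3, which opens IP3 receptors and empties the store. STIM proteins sense the emptied store and open ORAI channels in the plasma membrane, and the calcium that enters can activate calcineurin and NFAT factors.

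Of the 34 member probe sets, 9 were higher and 7 lower with LEF1 siRNA in all 3 batches, and 18 were mixed. Over all 54613 probe sets tested, 22.1% were higher and 14.4% lower in all 3 batches. These shares take in dim probe sets, while 30 of the 34 lay above the median level. Of the 27306 probe sets above that level, 8081 were higher and 4191 lower in all 3 batches. In 6 member probe sets every LEF1 siRNA array lay above every scrambled siRNA array, against 7.88% of all probe sets, and in 1 every LEF1 siRNA array lay below, against 4.59%. Above the median level these counts were 2974 and 1239 of 27306. In the limma fit across all probe sets with batch as block, 8 of the 34 passed an adjusted p of 0.05, beside 6.09% of all. Of these 7 were higher and 1 lower, beside 4.58% and 1.51% of all. Among the 27306 probe sets above the median level, 2379 were called higher and 814 lower. In 1 simulated data set the fit with block made a larger share of false calls than its threshold sets, but 1 draw does not measure its rate of false calls. Without block the fit called 0 of the 34, beside 0.0183% of all, and 9 of the 34 had an unadjusted p under 0.05, against 7.84% of all. The share with an unadjusted p under 0.05 was not taken above the median level. The median difference of the 34 was 0.033 on the log2 scale, and that of all probe sets was 0.011. Of the 8 that passed with block, 5 belong to the plasma membrane pumps and 1 each to ATP2A3, ITPR2 and STIM2.

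**Figure D1:**
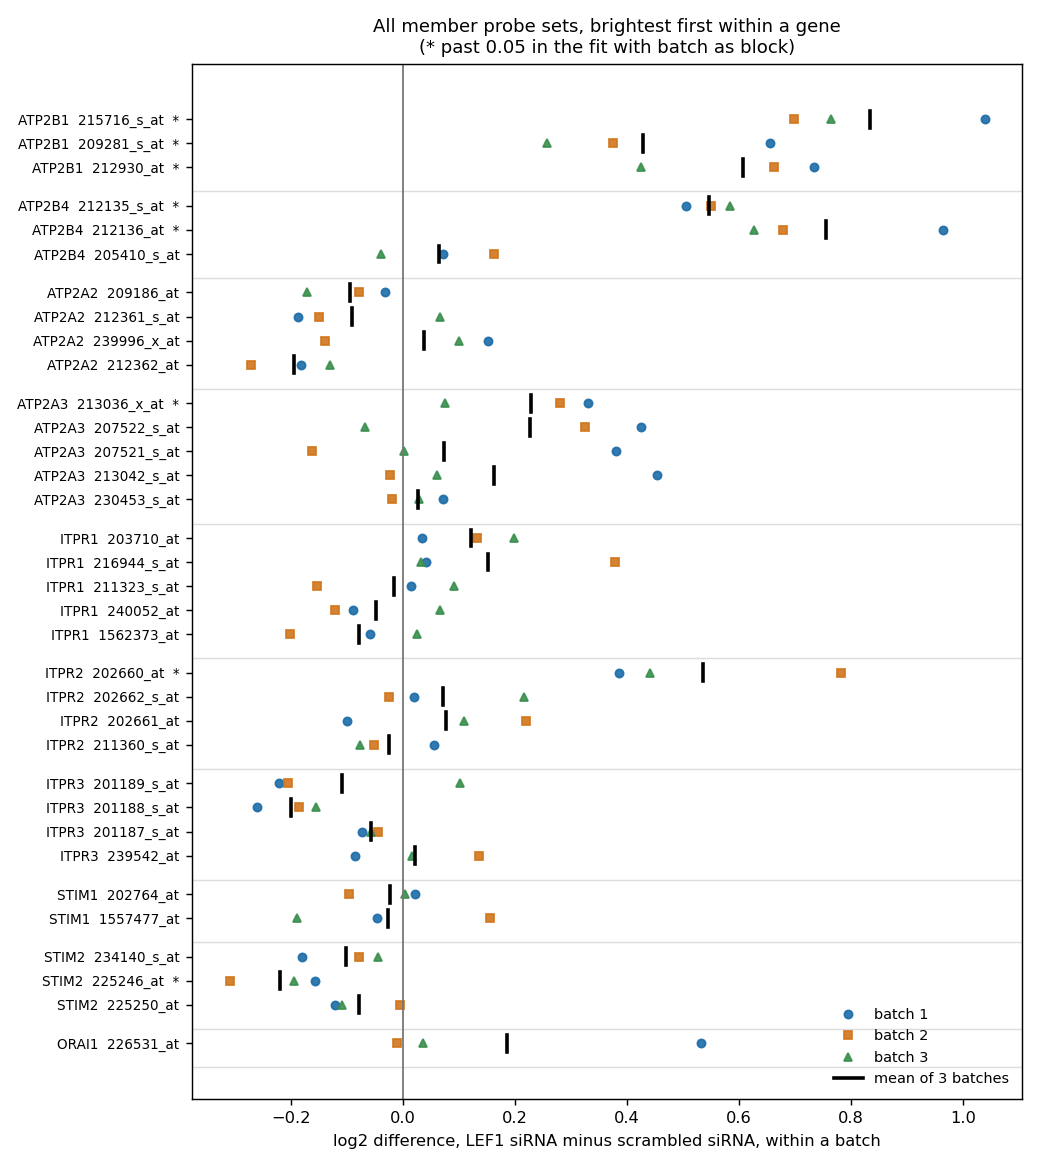
Log2 difference of LEF1 siRNA minus scrambled siRNA within each of 3 batches (points) and its mean (bar) for all 34 member probe sets, which run down the page by gene. The 3 ATP2B1 probe sets, 2 of 3 ATP2B4 probe sets and 1 of 4 ITPR2 probe sets lie to the right of 0 in all batches, while the probe sets of STIM2 lie to the left.

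Both plasma membrane pump genes among the members were higher with LEF1 siRNA. ATP2B1 encodes PMCA1, the broadly expressed member of the family. Its brightest probe set read 10.21, 9.40 and 9.79 with LEF1 siRNA in batches 1, 2 and 3, against 9.17, 8.71 and 9.03 with scrambled siRNA. The groups did not overlap, and within each group batch 1 was highest and batch 2 lowest. The mean difference was 0.83 ± 0.18 (SD over 3 batches), a 1.78-fold higher signal with LEF1 siRNA.

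The other 2 ATP2B1 probe sets had the same direction in every batch. The dimmest of them read 9.06, 8.59 and 8.92 with LEF1 siRNA, against 8.32, 7.93 and 8.49 with scrambled siRNA, a mean difference of 0.61. The second brightest read 9.52, 8.98 and 9.37 with LEF1 siRNA, against 8.86, 8.60 and 9.11 with scrambled siRNA, a mean difference of 0.43. At the second brightest the groups overlapped, since the batch 2 array with LEF1 siRNA was below the batch 3 array with scrambled siRNA. The SD between scrambled siRNA arrays was between 0.24 and 0.29 at the 3 probe sets.

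ATP2B4 encodes PMCA4, a further pump of the same family that calmodulin activates. Its brightest probe set read 8.43, 8.50 and 8.63 with LEF1 siRNA, against 7.93, 7.95 and 8.05 with scrambled siRNA. The batch differences of 0.51, 0.55 and 0.58 varied least among the 8 called member probe sets (SD 0.039), with a mean of 0.55 or 1.46-fold. The second brightest read 8.26, 8.31 and 8.31 with LEF1 siRNA, against 7.29, 7.63 and 7.68 with scrambled siRNA, a mean difference of 0.76 or 1.69-fold. The groups did not overlap at either of them. The dimmest ATP2B4 probe set averaged 7.04 ± 0.11 with LEF1 siRNA and 6.98 ± 0.02 with scrambled siRNA, near the median of all probe sets, and differed by 0.06.

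All 5 of these called PMCA probe sets passed with batch as block in each of 12 versions of that fit. The versions included 4 other scalings of the arrays and leaving out each batch. They also included the fit that made the calls and the same fit at a looser threshold, which any called probe set passes by construction. Every count out of 12 given for a called probe set or gene, here and below, holds these guaranteed passes. All versions refit the same arrays, on which the members were already known. Such a count describes how a call depends on settings and is no independent support for a difference. The differences of the 5 PMCA probe sets stayed between 0.32 and 0.90 over the 12 versions. Without block, the brightest ATP2B4 probe set passed after quantile normalization and after cyclic loess, and the brightest of ATP2B1 passed with poly-A spike-in scaling.

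**Figure D2:**
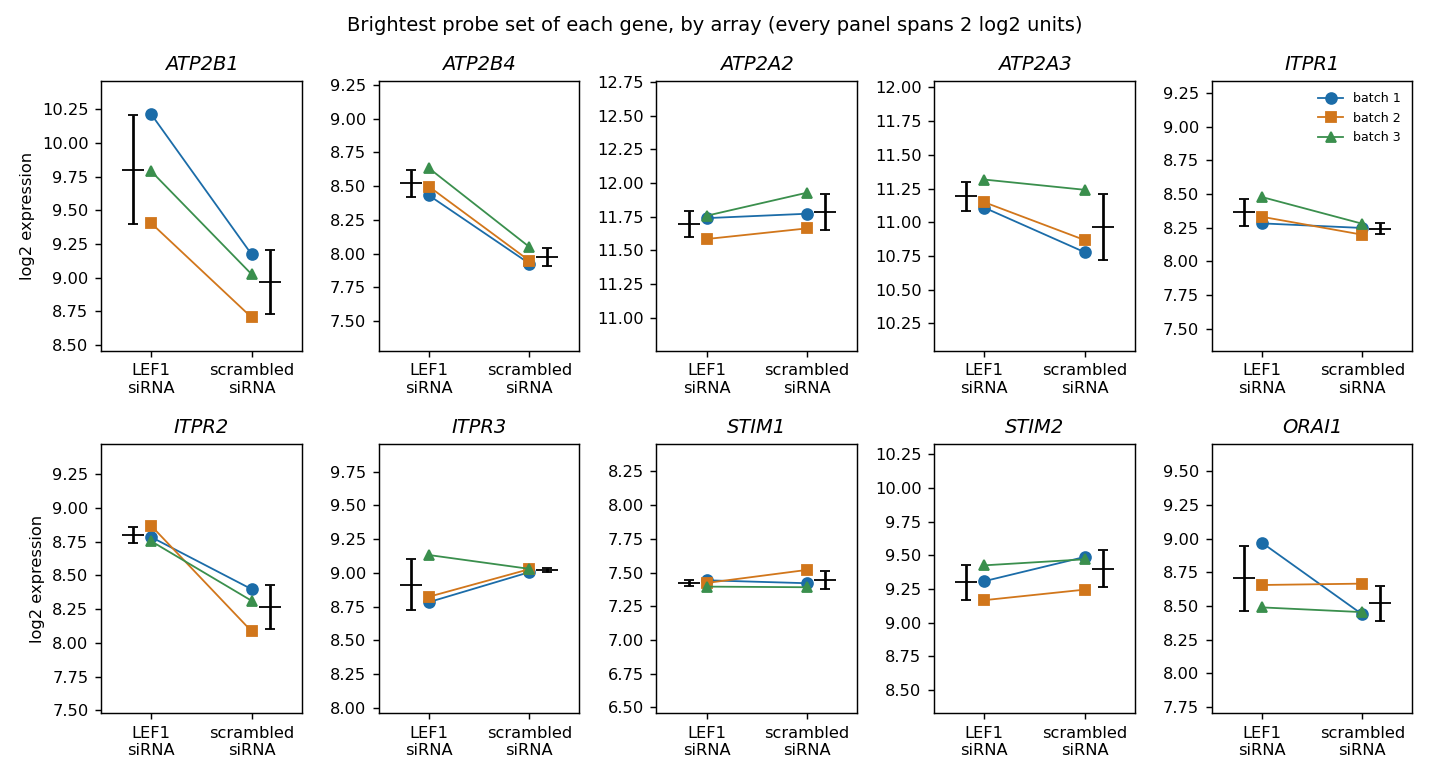
Log2 expression of the brightest probe set of each of the 10 genes on the 3 LEF1 siRNA arrays (left) and the 3 scrambled siRNA arrays (right), with lines joining arrays of a batch and black bars for the mean ± SD. Every panel spans the same 2 log2 units, and ATP2B1, ATP2B4 and ITPR2 show groups that stand apart, as ITPR1 does by a smaller distance.

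The store pumps differed less. ATP2A2 encodes SERCA2, the SERCA pump of most tissues, and its brightest probe set read 11.74, 11.58 and 11.76 with LEF1 siRNA, against 11.77, 11.66 and 11.93 with scrambled siRNA. The groups overlapped and the mean difference was -0.09, lower in 3 of 3 batches. The dimmest ATP2A2 probe set was also lower in every batch, with a mean difference of -0.19. The remaining 2 probe sets differed by -0.09 and 0.04, with mixed signs between batches. None of the 4 passed with or without block on the deposited scale, but the dimmest passed as lower with batch as block after quantile normalization, cyclic loess or poly-A spike-in scaling and at a threshold of 0.1, and the brightest with poly-A spike-in scaling.

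ATP2A3 encodes SERCA3, the SERCA pump of blood cells and some epithelia. Its brightest probe set read 11.11, 11.15 and 11.32 with LEF1 siRNA, against 10.78, 10.87 and 11.24 with scrambled siRNA. The batch 3 array with scrambled siRNA lay above both the batch 1 and the batch 2 array with LEF1 siRNA, so the groups overlapped. The differences were 0.33, 0.28 and 0.08 in batches 1, 2 and 3, and their mean was 0.23. This probe set passed in 6 of the 12 versions of the fit with batch as block. It did not pass without batch 1, without batch 2, with equal medians, with poly-A spike-in scaling, with eBayes trend and robust settings or at a threshold of 0.01. Its identifier carries the _x suffix, which marks probes that may also bind other transcripts. The other 4 ATP2A3 probe sets had mean differences between 0.03 and 0.23 with mixed batch signs, and in each of the 5 the largest difference came from batch 1.

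The IP3 receptors did not move together. ITPR2 encodes the type 2 receptor, and its brightest probe set read 8.78, 8.87 and 8.75 with LEF1 siRNA, against 8.40, 8.09 and 8.31 with scrambled siRNA. The groups did not overlap, the batch differences were 0.39, 0.78 and 0.44, and the mean of 0.54 made a 1.45-fold higher signal. This probe set also passed in all 12 versions of the fit with batch as block. The other 3 ITPR2 probe sets differed by 0.07, 0.08 and -0.02 and passed in none of them, so the difference in this gene rests on 1 probe set of 4.

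ITPR1 encodes the type 1 receptor. At its brightest probe set it read 8.28, 8.33 and 8.48 with LEF1 siRNA, against 8.25, 8.20 and 8.28 with scrambled siRNA. The groups were apart by less than 0.01 at their nearest arrays, and the mean difference was 0.12. The second brightest probe set was higher in each batch, with a mean difference of 0.15 that came mostly from the 0.38 of batch 2. The remaining 3 were mixed, and 2 of these lay below the median of all probe sets. No ITPR1 probe set passed in any version of the fit.

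ITPR3 encodes the type 3 receptor and tended the other way. Its second brightest probe set read 8.19, 8.31 and 8.36 with LEF1 siRNA, against 8.45, 8.49 and 8.52 with scrambled siRNA. Every LEF1 siRNA array was below every scrambled siRNA array, with batch differences of -0.26, -0.19 and -0.15 and a mean of -0.20. It did not pass with batch as block at 0.05 on the deposited scale but did in 6 of the 12 versions, among them the 4 other scalings, where its difference ran to -0.31. The brightest ITPR3 probe set averaged 8.91 ± 0.19 with LEF1 siRNA and 9.02 ± 0.01 with scrambled siRNA. It was lower in batches 1 and 2 and higher in batch 3, with a mean difference of -0.11, and passed as lower in 1 of the 12 versions. The remaining 2 ITPR3 probe sets differed by -0.06 and 0.02 and passed in no version of the fit.

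Among the store entry genes, the sensor STIM2 was lower and the others showed no shared direction. STIM2 is known as the more sensitive of the STIM sensors to small losses of store calcium. Its second brightest probe set read 9.22, 9.03 and 9.34 with LEF1 siRNA, against 9.38, 9.34 and 9.54 with scrambled siRNA. The highest LEF1 siRNA array, from batch 3, lay just above the lowest scrambled siRNA array, from batch 2, so the groups overlapped. The batch differences were -0.16, -0.31 and -0.20, with a mean of -0.22, which left 85.8% of the signal. It passed as lower in 9 of the 12 versions of the fit with batch as block, the 4 other scalings included, and not without batch 2, with eBayes trend and robust settings or at a threshold of 0.01. The other 2 STIM2 probe sets were also lower in all batches, with mean differences of -0.10 and -0.08, and did not pass on the deposited scale.

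STIM1, the main store sensor, had 2 probe sets. Its brighter probe set read 7.44, 7.42 and 7.40 with LEF1 siRNA, against 7.42, 7.52 and 7.39 with scrambled siRNA, a mean difference of -0.02. Its other probe set averaged 6.45 ± 0.11 with LEF1 siRNA and 6.48 ± 0.06 with scrambled siRNA, below the median of all probe sets. The groups overlapped at both, and neither passed in any version of the fit.

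ORAI1, the pore subunit of the store-operated channel, had 1 probe set. It read 8.97, 8.66 and 8.49 with LEF1 siRNA, against 8.44, 8.67 and 8.45 with scrambled siRNA. The difference was 0.53 in batch 1 but -0.01 in batch 2 and 0.04 in batch 3, so the mean of 0.19 ± 0.30 (SD over 3 batches) rests on the batch 1 pair. It did not pass with all arrays, and passed with batch as block only when batch 3 was left out.

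At the brightest probe set, ATP2B1, ATP2B4 and ITPR2 lay above the other 7 genes on the deposited scale. They stayed above these genes after quantile normalization and cyclic loess. Equal medians and poly-A spike-in scaling shift every difference by a common amount, so the order of the genes was fixed in advance there. Poly-A spike-ins are transcripts meant to be added before labelling. They were read at 27 control probe sets with dap, lys, phe, thr or trp in the name. These averaged between 7.51 and 7.95 on an array, beside an array-wide median of 6.91. Scaling to them moved the median of all probe sets by -0.11 to -0.10. The brightest ATP2B1, ATP2B4 and ITPR2 probe sets then differed by 0.72, 0.44 and 0.43, and those of ATP2A2, ITPR3 and STIM2 by -0.20, -0.22 and -0.21. Under that scaling with batch as block, 6 member probe sets were called higher and 6 lower, beside 1001 higher and 5724 lower of all 54613. Of all probe sets called with batch as block 75.2% were higher on the deposited scale, against 66.2% with equal medians, 60.1% after cyclic loess, 56.1% after quantile normalization and 14.9% with the spike-ins.

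**Figure D3:**
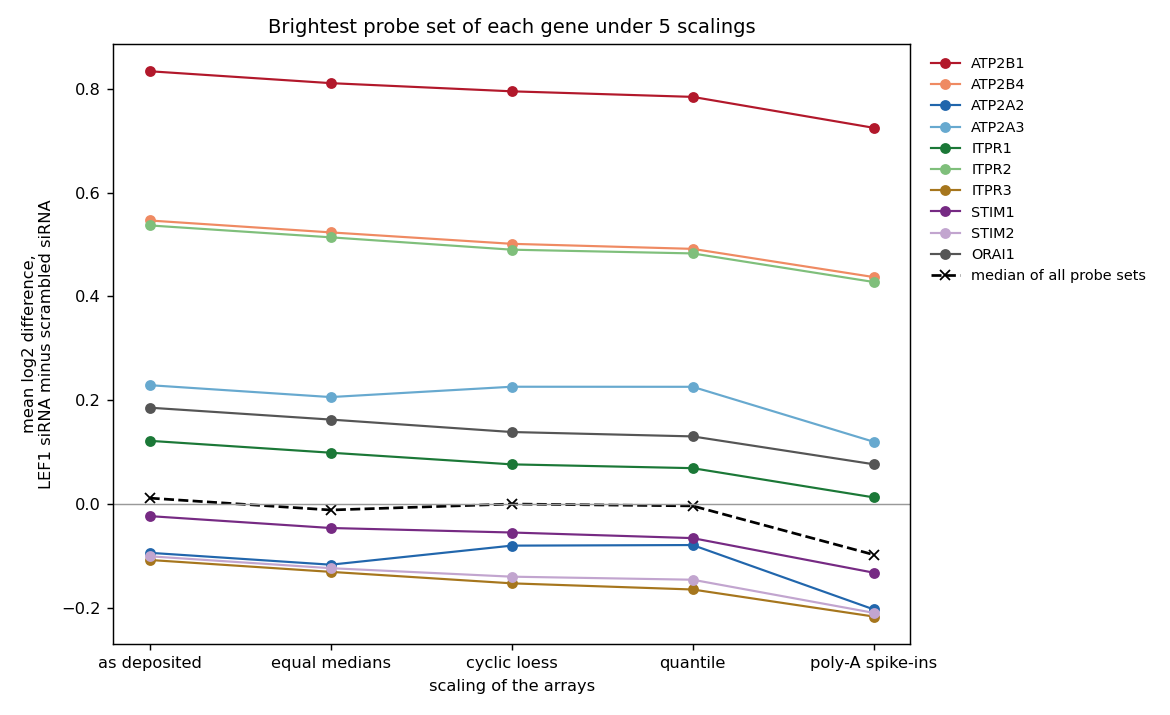
Mean log2 difference of LEF1 siRNA minus scrambled siRNA at the brightest probe set of each gene under 5 scalings of the arrays, with the median of all probe sets as a dashed line. ATP2B1 (0.72 to 0.83), ATP2B4 and ITPR2 lie above the other 7 genes under each scaling. Equal medians and poly-A spike-ins lower every value by a common amount, so the gene order cannot change under them.

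Promoter sequence was read for the members because ATP2B1 and ATP2B4 had higher signals once a DNA-binding factor was lowered. RefSeq windows on GRCh38.p14, from 250 bases before to 50 bases after a gene's start, matched 7 of the 10 members and gave 12 windows. ATP2A3, ITPR2 and ORAI1 were not among them. The first ATP2B1 window is chr12:89709317-89709616 on the minus strand, the ATP2B4 window is chr1:203626582-203626881 on the plus strand, and the ITPR1 window is chr3:4493098-4493397 on the plus strand. They are shown 5′ to 3′ with capitals for the 7-letter forms CTTTGAT and CTTTGAA of the site that TCF and LEF factors prefer, searched on both strands, and for CACGTG, the E-box that MYC with MAX can bind, which reads the same on both strands.
ATP2B1: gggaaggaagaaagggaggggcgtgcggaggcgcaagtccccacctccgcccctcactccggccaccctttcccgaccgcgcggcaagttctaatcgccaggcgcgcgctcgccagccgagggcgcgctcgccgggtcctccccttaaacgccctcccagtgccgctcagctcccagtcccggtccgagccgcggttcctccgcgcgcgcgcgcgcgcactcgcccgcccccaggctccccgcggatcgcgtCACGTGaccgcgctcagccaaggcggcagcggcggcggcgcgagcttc
ATP2B4: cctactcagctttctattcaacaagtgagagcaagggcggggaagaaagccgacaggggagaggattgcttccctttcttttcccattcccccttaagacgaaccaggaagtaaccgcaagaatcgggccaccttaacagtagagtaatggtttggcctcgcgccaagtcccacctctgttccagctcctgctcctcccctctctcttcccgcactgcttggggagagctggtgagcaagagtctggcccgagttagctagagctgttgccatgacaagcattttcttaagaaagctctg
ITPR1: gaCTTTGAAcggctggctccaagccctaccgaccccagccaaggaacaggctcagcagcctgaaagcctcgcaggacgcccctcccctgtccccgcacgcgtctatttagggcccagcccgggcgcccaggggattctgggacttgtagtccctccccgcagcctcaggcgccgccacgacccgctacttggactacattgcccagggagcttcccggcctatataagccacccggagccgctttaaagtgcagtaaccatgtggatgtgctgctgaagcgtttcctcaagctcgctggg

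The TCF/LEF letters were found in 1 of the 12 member windows, that of ITPR1, where CTTTGAA starts 248 bases before the gene's start. Over all 35116 RefSeq windows, 6.86% hold either form. The windows of ATP2B1 and ATP2B4 hold neither, which says only that these letters are not in this stretch. The E-box was searched after the ATP2B1 window had been seen, where it begins 2 bases past the gene's first base, and 7.26% of all windows hold it. The ATP2B1 windows had 75.3% and 79.3% G and C, the ATP2B4 window had 53.3%, and the median over all windows was 58.7%. The motifs do not overlap one another, and a match describes letters, not binding.

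Among transcripts whose pattern was most like the brightest ATP2B1 probe set over the 6 arrays were those of RASSF3, CBLB, CREB1, LEPROT and HLA-DQB1, with Pearson's r between 0.984 and 0.989. They were the closest of 3717 probe sets above the median level with an SD of at least 0.2. After the mean of each batch was subtracted, CD86, CCDC92, KBTBD6, STK35 and YTHDF3 were closest, with r between 0.9997 and 0.9999. With 3 batches such values describe only 3 pairs of arrays, and genes are not independent replicates. CBLB, an E3 ubiquitin ligase gene, averaged 9.03 ± 0.18 with LEF1 siRNA and 8.72 ± 0.07 with scrambled siRNA. CD86, a costimulatory ligand gene of B cells, averaged 10.21 ± 0.16 with LEF1 siRNA and 9.66 ± 0.03 with scrambled siRNA. Between the brightest probe sets of the 10 members, ITPR2 and ATP2B4 had the highest r, 0.90, and ORAI1 and ITPR3 the lowest, -0.78, among 45 pairs.

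Other genes of calcium handling were read at the brightest probe set of each, from 7 lists chosen by function with earlier results of these data known. Of 94 listed genes 86 were measured, and with batch as block 11 rose, 1 fell and 74 did not pass. Over all 19775 genes read in this way 6.73% rose and 1.7% fell. Among the 74, ATP2C1, PLCG2, LYN, NFATC3, CANX and VDAC1 passed with batch as block at a dimmer probe set. Of the 86, 72 lay above the median level of all probe sets, and no share was taken over genes above that level. Without block limma called 0 of the 86, against 0.0183% of all probe sets, and 13 of them, or 15.1%, had an unadjusted p under 0.05, against 7.84% of all probe sets. The adjusted p-values without block of the 12 called genes ran from 0.132 to 0.878. The lists' median differences lay between -0.02 and 0.08, beside 0.019 for all genes.

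**Figure D4:**
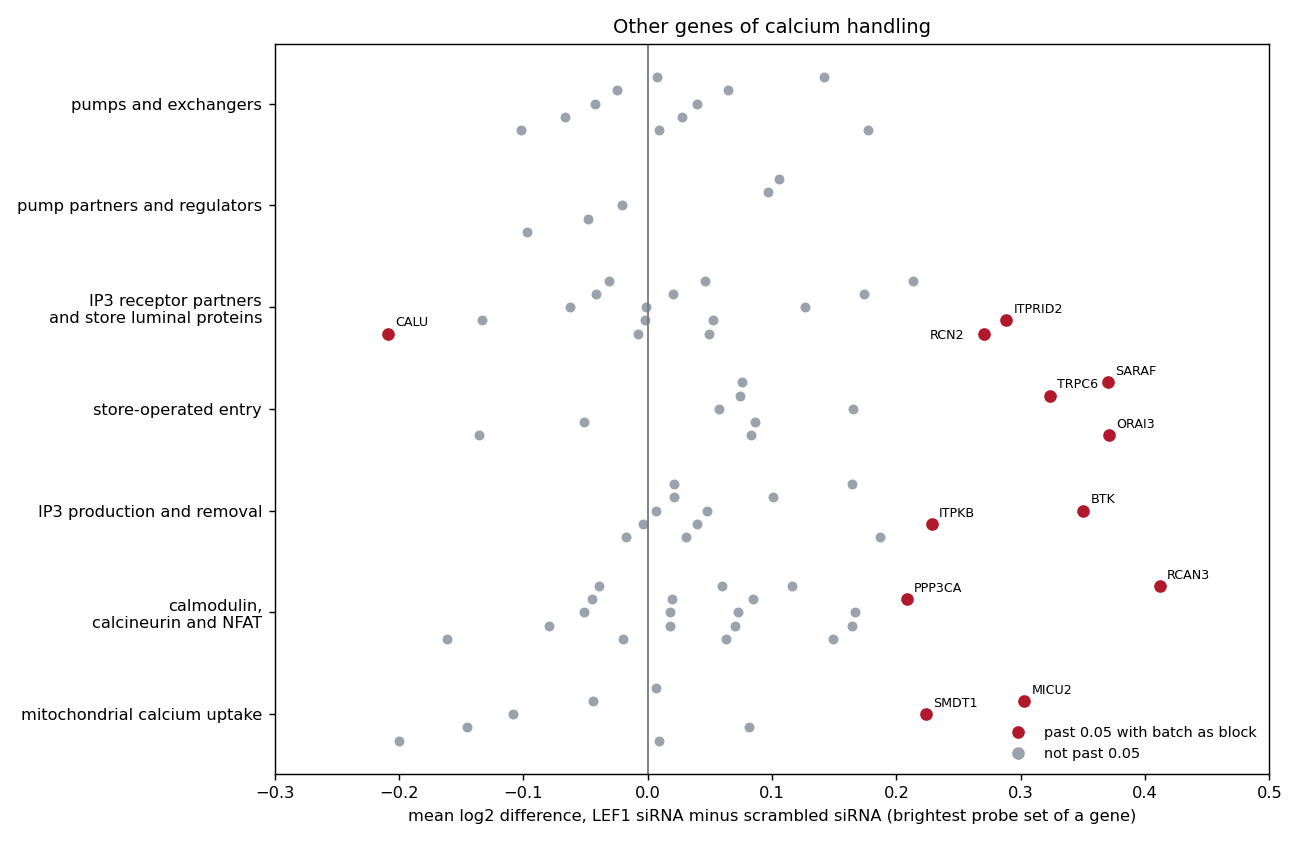
Mean log2 difference of LEF1 siRNA minus scrambled siRNA at the brightest probe set of 86 other calcium-handling genes in 7 lists, with red points for those past an adjusted p of 0.05 with batch as block. The 11 red points to the right of 0 include 3 genes of the store entry list, and CALU is the only red point to the left.

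In the store entry list 3 of 11 genes rose and 0 fell. SARAF, which encodes an inhibitor that slows store entry through STIM, averaged 10.81 ± 0.16 with LEF1 siRNA and 10.44 ± 0.27 with scrambled siRNA, a rise of 0.37 (limma adjusted p = 0.00236 with batch as block, higher in 3 of 3 batches). ORAI3, a further ORAI channel subunit, averaged 7.96 ± 0.07 with LEF1 siRNA and 7.59 ± 0.07 with scrambled siRNA and rose by 0.37 (limma adjusted p = 0.00244). TRPC6, a cation channel gene, rose by 0.32 at its brighter and 0.34 at its dimmer probe set, but at 7.02 its level lay close to the median of all probe sets. These calls held under the 4 other scalings and without any 1 batch. A second SARAF probe set, at 6.57 with LEF1 siRNA and 6.56 with scrambled siRNA, did not pass.

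In the list of genes that make and remove IP3, 2 of 13 rose. BTK, the tyrosine kinase that activates phospholipase C gamma 2, averaged 10.61 ± 0.07 with LEF1 siRNA and 10.26 ± 0.11 with scrambled siRNA, a rise of 0.35 (limma adjusted p = 0.00252 with batch as block). ITPKB, a kinase gene whose product phosphorylates IP3, rose by 0.23 (limma adjusted p = 0.0417), at 1 of its 5 probe sets. It passed in 5 of 12 versions of the fit with batch as block, none of them among the 4 other scalings, and not without batch 1 or 2. In the calmodulin, calcineurin and NFAT list 2 of 20 rose. RCAN3, a calcineurin regulator gene, averaged 9.22 ± 0.05 with LEF1 siRNA and 8.80 ± 0.10 with scrambled siRNA, a rise of 0.41 (limma adjusted p = 0.000848). Its other 2 probe sets differed by 0.08 and 0.01 and did not pass. PPP3CA, a catalytic subunit gene of calcineurin, rose by 0.21 (limma adjusted p = 0.0490), at 1 of its 3 probe sets. It passed in 4 of 12 versions, none of them among the 4 other scalings, and not without batch 1 or 2.

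Among IP3 receptor partners and proteins of the store lumen, 2 of 17 rose and 1 fell. ITPRID2, whose product binds and positions IP3 receptors, rose by 0.29 (limma adjusted p = 0.00907 with batch as block), and RCN2, a calcium-binding reticulocalbin gene, rose by 0.27 (limma adjusted p = 0.0150). Each rested on the brightest probe set, 1 of 3 for ITPRID2 and 1 of 2 for RCN2. They passed in 10 and 9 of 12 versions, and neither call held when batch 2 was left out or the spike-ins set the scale. The brightest probe set of CALU, the gene of the calcium-binding protein calumenin, fell by 0.21 (limma adjusted p = 0.0443), and this call held in 7 of 12 versions and was lost when any batch was left out. All 5 CALU probe sets passed as lower with all arrays, with differences between -0.38 and -0.21.

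In the mitochondrial list 2 of 9 rose, MICU2, a gatekeeper of the uniporter, by 0.30 (limma adjusted p = 0.00681 with batch as block) and SMDT1, its essential small subunit EMRE, by 0.22 (limma adjusted p = 0.0335). MICU2 passed in 10 of 12 versions and SMDT1 in 6, at 1 of its 3 probe sets. Neither call held when batch 2 was left out or the spike-ins set the scale, and that of SMDT1 was lost with equal medians and without batch 1 too. Of 11 other pumps and exchangers none passed at the brightest probe set. ATP2C1, the Golgi pump gene, differed by 0.18 there (limma adjusted p = 0.205), while 2 of its 3 dimmer probe sets passed, by 0.34 and 0.32. ATP2B3, a further PMCA gene, averaged 7.06 with LEF1 siRNA and 6.92 with scrambled siRNA and did not pass. ATP2B2, also a PMCA gene, differed by -0.04 and did not pass. Of 5 pump partners and regulators none passed. SLN, a SERCA inhibitor gene of muscle, differed by 0.11, and BSG, which encodes the PMCA partner basigin, by -0.10.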

How the data were processed

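Labelling followed a 3' IVT kit per the labels' protocols, which weights the signal to transcript 3' ends. The authors deposited 1 log2 value per probe set and array. Background correction and normalization were not given in the sources used here, and the log2 scale was inferred from the range of 5.45 to 15.0. The 62 control probe sets were left out, and 54613 were tested. Genes were named from the platform annotation, where 41091 tested probe sets name 1 gene.

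The fit over all probe sets used limma 3.58.1 (R 4.3.3), two-sided, with Benjamini-Hochberg adjustment at 0.05, without block and with the labelled batch as block. Deviations from group means correlated across probe sets at 0.477, 0.493 and 0.621 within batches 1, 2 and 3, so the batch label was taken as pairing. With block the fit has 2 residual and 12.0 prior degrees of freedom, and without it 4 and 4.07. In 1 simulated data set, the fit with block made a larger share of false calls than its threshold sets, and the fit without block did not. A single draw does not measure the rate of false calls of either fit. Members, gene lists and tests were chosen with earlier results of these data known. Every member probe set was to be named, with up to 4 called genes, or 2 uncalled, from each other list by smallest p, and the 5 genes most like ATP2B1. Alternatives covered scaling, dim probe sets, thresholds, eBayes settings, probe set choice and left-out arrays or batches. Precision is limited by the number of arrays. A planned pseudocount did not apply to log2 values.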

Additional observations from a re-analysis of the deposited data

How the results depend on the processing

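With the replicate block (batch) in place of the fit without block, the calls were 3328 against 10 for all probe sets, 8 against 0 for the members and 12 against 0 for the other calcium genes. Without block, the calls for all probe sets and for members were 23 and 1 after quantile normalization, 23 and 1 after cyclic loess, and 34 and 1 when scaled to the poly-A spike-ins, and no other calcium gene passed. With block, the calls for all probe sets, members and other calcium genes were 3315, 10 and 11 after quantile normalization, 2785, 8 and 10 with equal medians, 3240, 10 and 11 after loess, 6725, 12 and 13 with poly-A spike-in scaling, 3465, 9 and 13 without dim probe sets, and 2938, 6 and 9 with eBayes trend and robust settings. A threshold of 0.01 gave 6 members and 7 other genes, and 0.1 gave 10 and 16. Other calcium genes numbered 18 with any probe set of a gene and 17 with the most variable one. For these thresholds and probe set choices no count over all probe sets or genes was taken, so no share stands beside them. Leaving out 1 array without block or 1 batch with block gave 0 to 3880 calls for all probe sets (3880, 1407 and 3626 with block and without batch 1, 2 and 3), 0 to 10 for members and 0 to 13 for the other genes. Without block the members and other genes had 0 calls for each left-out array, and with block they had at least 6. The members' median difference ran from -0.0058 without batch 1 to 0.0572 without scrambled siRNA replicate 2, and was -0.076 with poly-A spike-in scaling, where that of all probe sets was -0.098. The brightest probe sets' differences moved by more than their SD over batches in 13 of 130 values and reversed in 0 among called ones. The causes were not tested, except that equal medians and poly-A spike-in scaling each lower every difference by a common amount.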
